A study of Mus musculus with 12 samples.

Results

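The hexokinase family was taken as the genes Hk1, Hk2, Hk3 and Hkdc1, and its 4 members were found by gene symbol among the 37681 genes of the deposited count table. All 4 were among the 19399 genes with enough reads to be tested. RNAseq had been performed on a thin slice of kidney cortex from male C57BL/6 mice of the TRACK line (TRAnsgenic model of Cancer of the Kidney, γ-HIF1αM3), 18 months old and untreated. The 3 TG+ mice (43-29, 43-49 and 43-75) carry a mutated, constitutively active HIF1α that is expressed in the proximal tubules, and the 3 TG- mice (43-26, 43-50 and 43-76) are wild type littermates without the transgene. Each mouse gave 2 libraries, 1 per kidney, which were summed so that the mouse was the unit of comparison. The TRACK line models early clear cell renal cell carcinoma in the cells where the transgene is active, whereas the cortex slice also holds other nephron segments, vessels, stroma and blood cells. In such bulk tissue, a change in the number of cells of a type and a change in the RNA per cell cannot be told apart.

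Hexokinases transfer phosphate from ATP to glucose, and the glucose 6-phosphate so formed is held in the cell for glycolysis, the pentose phosphate pathway, glycogen or amino sugars. Hk1 is the widely expressed isozyme and, like Hk2, can dock on the outer mitochondrial membrane at the VDAC channels. Hk2 is the inducible isozyme of muscle, fat and many tumors and a known target of HIF1α. Hk3 is found mainly in myeloid blood cells, and Hkdc1 encodes the most recently described member. The proximal tubule of the normal kidney makes and reabsorbs glucose, and uses little of it.

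The sequence upstream of the start site is shown for the member with the largest difference between the genotypes (Hk2), for the most abundant member in TG- mice (Hk1) and for the neighbor of Hk1 on chromosome 10 (Hkdc1), since HIF1 is known to bind DNA at a short core motif. Each run is the 250 bases before a RefSeq start site of mouse build GRCm38.p6, on the minus strand of the genome and 5′ to 3′ for the gene. Capitals mark the core motif ACGTG or GCGTG on either strand, so that a match on the opposite strand reads CACGT or CACGC.
Hk2, chr6:82774455-82774704: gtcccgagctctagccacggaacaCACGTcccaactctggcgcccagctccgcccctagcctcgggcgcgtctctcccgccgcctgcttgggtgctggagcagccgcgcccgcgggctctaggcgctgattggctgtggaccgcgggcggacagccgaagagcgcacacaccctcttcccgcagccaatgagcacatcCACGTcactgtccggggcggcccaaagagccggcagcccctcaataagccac
Hk1, chr10:62340422-62340671: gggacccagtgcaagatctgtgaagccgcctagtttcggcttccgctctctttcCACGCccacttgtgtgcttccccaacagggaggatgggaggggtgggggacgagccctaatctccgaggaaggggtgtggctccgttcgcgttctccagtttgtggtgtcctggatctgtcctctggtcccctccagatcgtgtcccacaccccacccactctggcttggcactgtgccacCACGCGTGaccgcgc
Hkdc1, chr10:62422458-62422707: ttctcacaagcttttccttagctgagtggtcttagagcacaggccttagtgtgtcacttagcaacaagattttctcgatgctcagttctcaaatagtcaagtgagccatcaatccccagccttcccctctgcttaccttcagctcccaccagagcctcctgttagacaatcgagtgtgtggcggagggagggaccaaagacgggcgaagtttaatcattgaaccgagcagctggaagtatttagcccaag
The Hk2 window held 2 matches, both of ACGTG on the strand opposite to the gene, at 226 to 222 and at 52 to 48 bases before the start. The Hk1 window held 3 matches of GCGTG, 1 at 196 to 192 bases and a pair at 15 to 11 and 12 to 8 bases before the start that overlap on opposite strands. A further RefSeq start site of Hk1, whose window lies at chr10:62379909-62380158, had 0 matches. The Hk3 window, at chr13:55021386-55021635, held 1 match of ACGTG at 156 to 152 bases before the start, and the Hkdc1 window held 0. A match to such short letters is common: 38.6% of all 32851 windows of this length held at least 1 match, 16.7% held 2 or more and 6.58% held 3 or more. The Hk2 window was also the richest of the family in CG pairs, with 25, against 14 in the Hk1 window shown, 6 in those of Hk3 and Hkdc1, and a median of 6 over all windows. These letters describe the windows and say nothing of whether a factor is bound there.

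Between 48052131 and 60506785 reads per mouse were counted on genes, from libraries of 21888584 to 33704850 reads. The unit of the levels is CPM, with library sizes corrected by edgeR's TMM factors (0.944 to 1.07). A gene was called when the adjusted p was below 0.01 and the fold change above 2 or below 0.5, and 732 genes were called higher (3.77% of those tested) and 41 lower (0.211%) in TG+ kidney cortex. Over all genes tested, the median log2 fold change was 0.01, and 39.1% had an unadjusted p below 0.05, the share against which such counts are to be read. Adjusted p-values are those of edgeR (quasi-likelihood F test), adjusted by the Benjamini-Hochberg method over all genes tested. With 3 against 3 mice, the 2-sided exact permutation test of a single value cannot go below 0.1. Hif1a, looked at because the transgene expresses a mutated HIF1α, stood at 95.7 ± 11.8 CPM in TG+ and at 104 ± 2.17 CPM in TG- mice (SD, n = 3 each; adjusted p = 0.343), and the table lists no transgene separately. Markers of the proximal tubule were abundant in both genotypes, with a median log2 fold change of -0.41 over the 12 of the list. The most abundant, Kap, stood at 16181 ± 1669 CPM in TG+ and 17074 ± 357 CPM in TG-, and the next, Slc34a1, at 5075 ± 168 and 8599 ± 413 CPM (SD, n = 3 each).

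Of the 4 members, Hk2 passed the full threshold, Hk1 passed the limit on adjusted p with a fold change below 2, and Hk3 and Hkdc1 passed neither. Thus 1 of 4 members was called higher, against 3.77% of all genes tested (3.98% in either direction), and 0 were called lower. At an adjusted p below 0.05 with the same fold limit it was also 1 of 4, against 5.61% of genes tested in either direction. With an adjusted p below 0.01 and no limit on fold change, 2 of 4 members were higher, against 7.91% of genes tested (12.2% in either direction). In CPM, every TG+ mouse lay above every TG- mouse for Hk1, Hk2 and Hk3, a pattern that 23.4% of all genes tested also had (44.2% were separated in either direction).

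**Figure D1:**
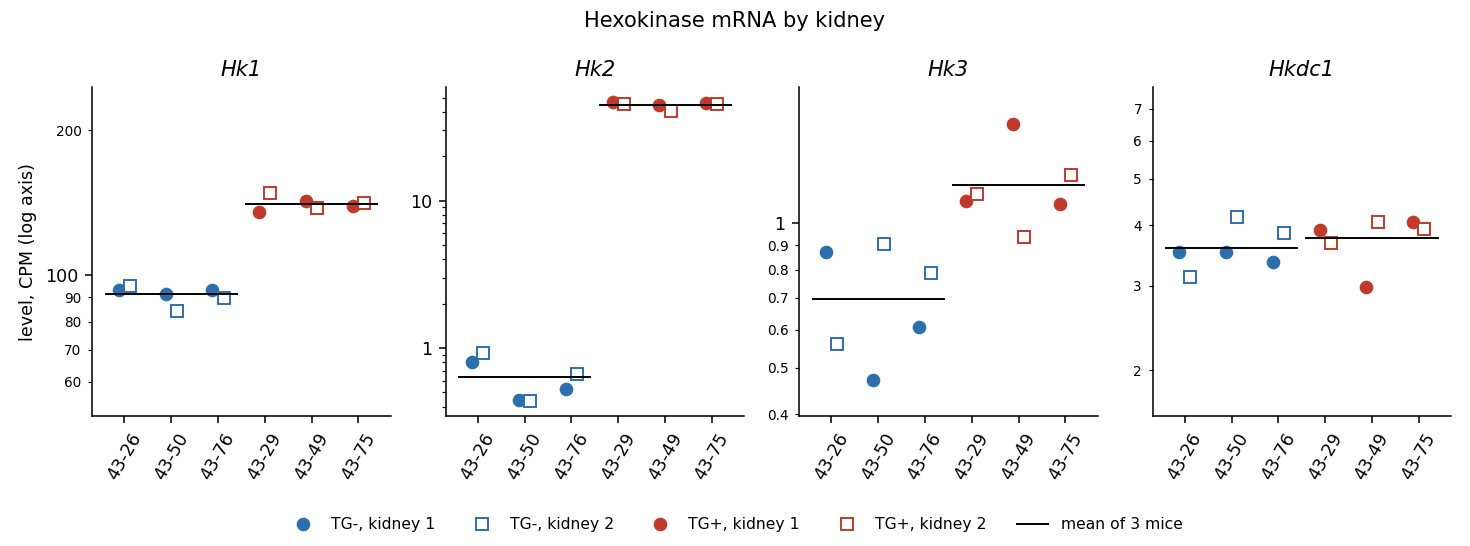
mRNA level of each hexokinase in the 12 kidney libraries, in CPM on a log axis whose range differs between panels, by mouse (TG- blue, TG+ red; filled circles kidney 1, open squares kidney 2; the black line is the mean of 3 mice). Hk2 libraries lay at 40.6 to 46.6 CPM in TG+ and at 0.433 to 0.921 CPM in TG-, and those of Hkdc1 overlapped between the genotypes.

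Hk2 mRNA was close to absent in TG- kidney cortex and was 1 of the 2 most abundant hexokinases in TG+. Hk2 (ENSMUSG00000000628, chromosome 6) had 2269, 2415 and 2303 reads in the TG+ mice 43-29, 43-49 and 43-75. The TG- mice 43-26, 43-50 and 43-76 had 44, 25 and 29 reads. Scaled to depth, the levels were 45.9, 42.6 and 45.9 CPM in TG+ and 0.858, 0.438 and 0.594 CPM in TG-. The groups were far apart, and the lowest TG+ kidney (40.6 CPM) was well above the highest TG- kidney (0.921 CPM). The mean rose from 0.630 ± 0.212 to 44.8 ± 1.90 CPM (SD, n = 3 each), a log2 fold change of 6.16 (SE 0.17) and a 71.4-fold difference (95% interval 54.7 to 93.2, adjusted p = 1.87e-06). By log2 fold change Hk2 ranked 34 among the 732 genes called higher.

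Among TG+ mice Hk1 and Hk2 varied little, while Hk3 and Hkdc1 were near the median of all genes tested. The SD of the log2 level over the 3 TG+ mice was 0.06 for Hk2, against a median of 0.23 over the 732 genes called higher, of which 4.51% had a smaller SD, and a median of 0.12 over all genes tested. The SD was 0.01 for Hk1, 0.09 for Hk3 and 0.10 for Hkdc1, each from 3 mice. In TG- mice, where each library held 11 to 23 reads of Hk2, the SD of Hk2 was 0.45 on the same scale. The genes whose levels over the 6 mice followed Hk2 most closely were Ntsr2 (a neurotensin receptor), Grin1os and Ndufa4l2 (a homolog of a subunit of the respiratory chain), with a root mean square distance of 0.14, 0.20 and 0.20 in centred log2 CPM. The distance uses a pseudocount of 0.05 CPM, which sets the value of genes close to 0: Ntsr2 stood at 3.66 CPM in TG+ and 0.00650 CPM in TG-, below the pseudocount, with a fitted log2 fold change of 8.71 (a value that depends on the prior count) against 6.16 for Hk2. Ndufa4l2 stood at 202 CPM in TG+ and 3.22 CPM in TG- mice (log2 fold change 5.98), and Grin1os at 11.4 and 0.0896 CPM. This likeness describes the pattern over 6 mice and was not tested.

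Hk1 mRNA was the most abundant hexokinase in TG- mice, had the most reads of the family in both genotypes, and was moderately higher in TG+ kidney cortex. Hk1 (ENSMUSG00000037012, chromosome 10) had 7043, 7946 and 7030 reads in the TG+ mice and 4822, 5042 and 4468 in the TG- mice, in the order given above. These were 142, 140 and 140 CPM in TG+ and 94.0, 88.3 and 91.4 CPM in TG-. The 3 TG+ mice were nearly identical, and the groups did not overlap, also by single kidney (136 to 148 CPM in TG+ and 84.4 to 94.9 CPM in TG-). The mean was 141 ± 1.35 CPM in TG+ and 91.2 ± 2.86 CPM in TG- (SD, n = 3 each). The log2 fold change was 0.63 (SE 0.05), a 1.54-fold difference with a 95% interval of 1.42 to 1.67 and an adjusted p of 1.62e-04. The interval lies wholly below the fold limit of 2. The genes with the most similar pattern over the 6 mice were 6330403L08Rik, Mkx and Elmo2 (root mean square distance 0.02, 0.03 and 0.04 in centred log2 CPM), of which Elmo2, an adaptor in cell migration and engulfment, stood at 61.5 CPM in TG+ and 38.9 CPM in TG-.

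Hk3 mRNA was scarce in both genotypes. Hk3 (ENSMUSG00000025877, chromosome 13) had 56, 73 and 59 reads in the TG+ mice and 37, 38 and 34 in the TG- mice. These were 1.13, 1.29 and 1.17 CPM in TG+ and 0.721, 0.665 and 0.696 CPM in TG-. The mice of the groups did not overlap, and the lowest TG+ kidney (0.935 CPM) and the highest TG- kidney (0.905 CPM) were nearly level. The mean was 1.20 ± 0.0800 CPM in TG+ and 0.694 ± 0.0280 CPM in TG- (SD, n = 3 each), a log2 fold change of 0.79 (SE 0.16) and a fold of 1.73 (95% interval 1.33 to 2.24). The adjusted p of 0.0105 lay just outside the limit. At this depth the kidneys of a mouse differed in Hk3 by up to 0.94 on the log2 scale, more than the difference between the genotypes. Kidney 1 alone gave a log2 fold change of 0.99 (adjusted p = 0.0483) and kidney 2 alone 0.57 (adjusted p = 0.148). The genes closest to Hk3 in pattern were Celf2, Plekho1 and Esyt1 (root mean square distance 0.03, 0.04 and 0.04 in centred log2 CPM).

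Hkdc1 mRNA showed no difference that passed the test. Hkdc1 (ENSMUSG00000020080, chromosome 10) had 187, 198 and 201 reads in the TG+ mice and 171, 218 and 176 in the TG- mice. These were 3.78, 3.49 and 4.003 CPM in TG+ and 3.33, 3.82 and 3.60 CPM in TG-. The groups overlapped, with means of 3.76 ± 0.257 and 3.58 ± 0.242 CPM (SD, n = 3 each; exact permutation p = 0.5). The log2 fold change was 0.07 (SE 0.12, adjusted p = 0.714), and its fold of 1.05 had a 95% interval of 0.871 to 1.26, which does not reach the 1.42-fold lower bound of Hk1. The closest genes in pattern were Lypd6b, Tusc3 and Gm5160, with log2 fold changes of 0.09 each.

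Hk1 and Hkdc1 lie next to each other on chromosome 10 and are read from the same strand, with no tested gene between them. Their log2 fold changes were 0.63 and 0.07, and the 95% intervals of these values (0.51 to 0.74 and -0.20 to 0.33) did not overlap. On the far side of Hkdc1, Supv3l1 had a log2 fold change of 0.06 (adjusted p = 0.510), and on the far side of Hk1, Tspan15 had 0.33 (adjusted p = 0.0514). The neighbors of Hk2, Pole4 and Dok1, had log2 fold changes of 0.28 and 0.38 (adjusted p = 0.0324 and 0.0476), against 6.16 for Hk2 itself. The neighbors of Hk3, Tspan17 and Uimc1, had 0.45 (adjusted p = 0.0127) and -0.13 (adjusted p = 0.168). None of these 6 flanking genes was called.

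Genes on the opposite strand overlap Hk1, Hk2 and Hk3, and the library kit does not mark strand. Hk1os, antisense to Hk1, was itself called higher (log2 fold change 1.35, adjusted p = 0.00803), at 0.505 CPM in TG+ and 0.195 CPM in TG-, levels that are small beside Hk1. It shares 107 of the 8877 distinct 51-base stretches of the annotated Hk1 transcripts (1.21%). Gm17034, across Hk2, had too few reads to be tested (0.0251 CPM in TG+ and 0 in TG-). Unc5a overlaps Hk3 at 2.28 and 1.69 CPM, but shared 0 of the 3910 stretches of the Hk3 transcripts. Stretches of 51 bases, the read length, were shared with no other gene for Hk2 (0 of 5964), Hk3 or Hkdc1 (0 of 5178). No 51-base stretch was shared between members of the family, so reads with an exact match could not be exchanged between them.

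To compare the members with each other, levels were divided by gene length, and the choice of length mattered. With the length of all annotated exons merged, Hk1 stood at 16.5 ± 0.158 CPM per kilobase in TG+ and 10.7 ± 0.336 in TG- (SD, n = 3 each). Hk2 stood at 7.50 ± 0.318 and 0.105 ± 0.0356 CPM per kilobase, Hkdc1 at 0.732 ± 0.05004 and 0.698 ± 0.0472, and Hk3 at 0.325 ± 0.0217 and 0.189 ± 0.00761. On this scale the order in TG+ mice was Hk1, Hk2, Hkdc1, Hk3, and in TG- mice Hk1, Hkdc1, Hk3, Hk2. In TG- mice Hk2 was below Hk3 in each of the 3 mice, at 0.734, 0.406 and 0.526 times its level, and in TG+ mice it was at 24.99, 20.4 and 24.1 times that level. Neighbors in these orders were separated in every mouse.

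The family as a whole stood at 25.4, 24.6 and 25.2 CPM per kilobase in TG+ mice and at 12.01, 11.3 and 11.7 in TG- mice. The TG+ mean was 2.14 times the TG- mean (25.1 ± 0.432 against 11.7 ± 0.331, SD, n = 3 each; exact permutation p = 0.1, the smallest this design allows). Of this difference, Hk2 made up 55.3% and Hk1 43.4%, both on the scale of merged exons. Hk1 held 91.5 ± 0.280% of the summed level in TG- mice and 65.9 ± 0.848% in TG+ mice, while Hk2 went from 0.898 ± 0.278% to 29.9 ± 0.791% (SD, n = 3 each). The share of Hkdc1 was 5.99 ± 0.573% in TG- and 2.92 ± 0.166% in TG+, at nearly level amounts of its own mRNA. The groups did not overlap in any of these 3 shares (exact permutation p = 0.1 each).

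**Figure D2:**
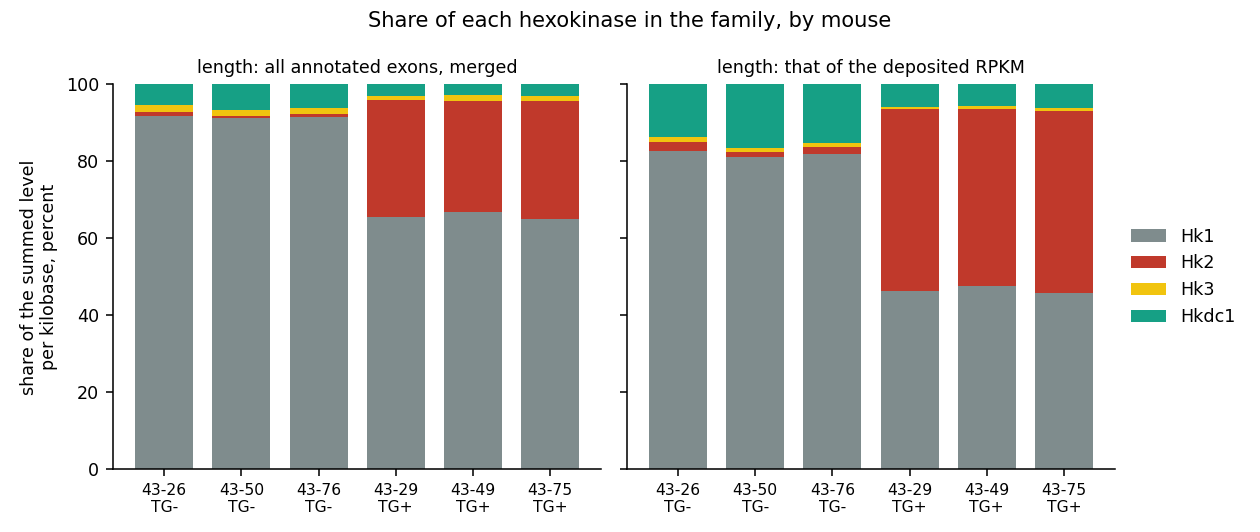
Share of each hexokinase in the summed level per kilobase of the 4 members, in percent, for each mouse, with 2 definitions of gene length. With merged exons (left) Hk2 held 29.0 to 30.5% in TG+ mice, and with the length behind the deposited RPKM (right) 45.9 to 47.4%.

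The length behind the deposited RPKM values gave Hk2 a larger part. For 51.2% of the genes with a symbol (within 1 bp), Hk2, Hk3 and Hkdc1 among them, that length equals the summed exons of every transcript in GENCODE M21, in which an exon counts once for each transcript that holds it. It equals the merged exons for 36.1% and the longest transcript for 37.3%, and a gene with a single transcript can match all of these. That length was put on a base pair scale by its median ratio to the merged exon length. For Hk1, with 20 annotated transcripts, it came to 29760 bp, against 25944 bp of summed exons in that annotation and 8532 bp of merged exons. For Hk2, with 4 transcripts, it came to 9404 bp, against 5969 bp of merged exons. On the scale of the deposited RPKM, Hk1 and Hk2 were level in TG+ mice, at 46.6% and 46.9% of the family, with a ratio of Hk1 to Hk2 of 0.995 ± 0.0395 (SD, n = 3). With the summed exons of GENCODE M21 (25944 bp for Hk1), an alternative chosen after seeing the data, the ratio was 1.14 ± 0.0453, so the near equality rested on the 29760 bp taken for Hk1. With merged exons it was 2.203 ± 0.0875. In TG- mice the RPKM length placed Hk2 above Hk3, at 2.11, 1.17 and 1.51 times its level, so the order of these scarce members also turned with the length. With the longest transcript, also chosen after seeing the data, the ratio of Hk1 to Hk2 in TG+ was 4.06 ± 0.161. The family's fold was 2.72 with the RPKM length, 2.59 with summed exons and 1.87 with the longest transcript, and Hk2 made up 73.1%, 70.4% and 40.4% of the family's difference, with Hk1 at 26.0%, 28.7% and 58.5%. Whether Hk2 reached the level of Hk1 in TG+ cortex thus depended on the length used, whereas in TG- mice Hk1 was at least 34.6 times Hk2 in every mouse on each of these scales.

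The kidneys of a mouse were close for the abundant members. The log2 ratio of kidney 1 to kidney 2 was at most 0.13 in size for Hk1, 0.34 for Hk2 (in a TG- mouse with 13 and 16 reads), 0.45 for Hkdc1 and 0.94 for Hk3. For Hk1 and Hk2 these differences between kidneys were smaller than the difference between the genotypes in every mouse.

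The summed markers of several other cell types of the cortex slice were separated between the genotypes. Single genes were separated in either direction for 44.2% of those tested. Of all genes tested, 3.77% were called higher, 0.211% were called lower and 39.1% had an unadjusted p below 0.05. Markers of myeloid cells summed to 185 to 223 CPM in TG+ and 108 to 145 CPM in TG- mice, with all 15 of 15 log2 fold changes above 0, 1 called higher (Ly6c2), 11 with an unadjusted p below 0.05 and 1.65 times the level in TG+. Hk3, whose fold was 1.73, stood at 5.07, 6.97 and 5.34 CPM per 1000 CPM of these markers in the TG+ mice. In the TG- mice it stood at 4.97, 6.17 and 5.49, so that the groups overlapped on this scale (exact permutation p = 0.8). The summed stromal, erythroid and lymphoid markers had folds of 1.72, 1.76 and 1.97, also near that of Hk3, and the part of any of these cells in the difference of Hk3 was not tested. Endothelial markers summed to 552 to 594 CPM in TG+ and 321 to 422 CPM in TG- (7 of 7 above 0, 0 called, 7 with an unadjusted p below 0.05, 1.54-fold). Stromal markers summed to 246 to 335 and 155 to 183 CPM (7 of 7 above 0, 1 called, Fn1, 6 with an unadjusted p below 0.05, 1.72-fold). The fold of Hk1 was 1.54 as well, and the part of these cells in it was not tested.

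Lymphoid markers summed to 37.7 to 43.1 CPM in TG+ and 17.2 to 22.9 CPM in TG- (9 of 9 above 0). Of these 9, 4 were called higher, against 3.77% of all genes tested, and 8 had an unadjusted p below 0.05, against 39.1%. Erythroid markers summed to 71.9 to 91.7 and 42.9 to 52.3 CPM (4 of 4 tested above 0, 0 called, 3 with an unadjusted p below 0.05). Proliferation markers summed to 13.2 to 26.0 and 7.17 to 10.3 CPM (6 of 6 above 0, 0 called, 5 with an unadjusted p below 0.05), and markers of tubule injury to 79.8 to 129 and 43.5 to 67.4 CPM (8 of 8 above 0, 3 called: Havcr1, Krt19 and Cd44, 7 with an unadjusted p below 0.05). Adipose markers, of a tissue that also expresses Hk2, stood at 2.17 times the TG- mean in TG+ mice and overlapped between the groups (29.3 to 75.2 and 21.3 to 30.9 CPM, 6 of 6 above 0, 0 called, 2 with an unadjusted p below 0.05). Adipoq had 370 and 239 reads in the TG+ mice 43-49 and 43-75 and 99 in the TG- mouse 43-50. In the TG+ mouse 43-29 and the TG- mice 43-26 and 43-76 it had 0 reads, and Fabp4 made up nearly all of the sum (29.1, 21.2 and 21.3 CPM). The part of adipose tissue in the difference of Hk2 was not tested. Markers of skeletal muscle, a tissue rich in Hk2, also overlapped, at 3.68 to 4.003 and 2.48 to 6.51 CPM, where 1 of 7 could be tested and Myh2 had at most 3 reads in every library. Proximal tubule markers summed to 30321 to 33511 CPM in TG+ and 39796 to 42896 CPM in TG-, with 0 of 12 log2 fold changes above 0. Of these 12, 1 was called lower (Slc22a6, an organic anion transporter), against 0.211% of all genes tested. By an adjusted p below 0.01 whatever the fold, 6 were lower, against 4.25%, and 10 had an unadjusted p below 0.05, against 39.1%. Markers of other nephron segments overlapped (3641 to 4974 and 3949 to 4072 CPM, 7 of 8 above 0, 0 called, 3 with an unadjusted p below 0.05).

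**Figure D3:**
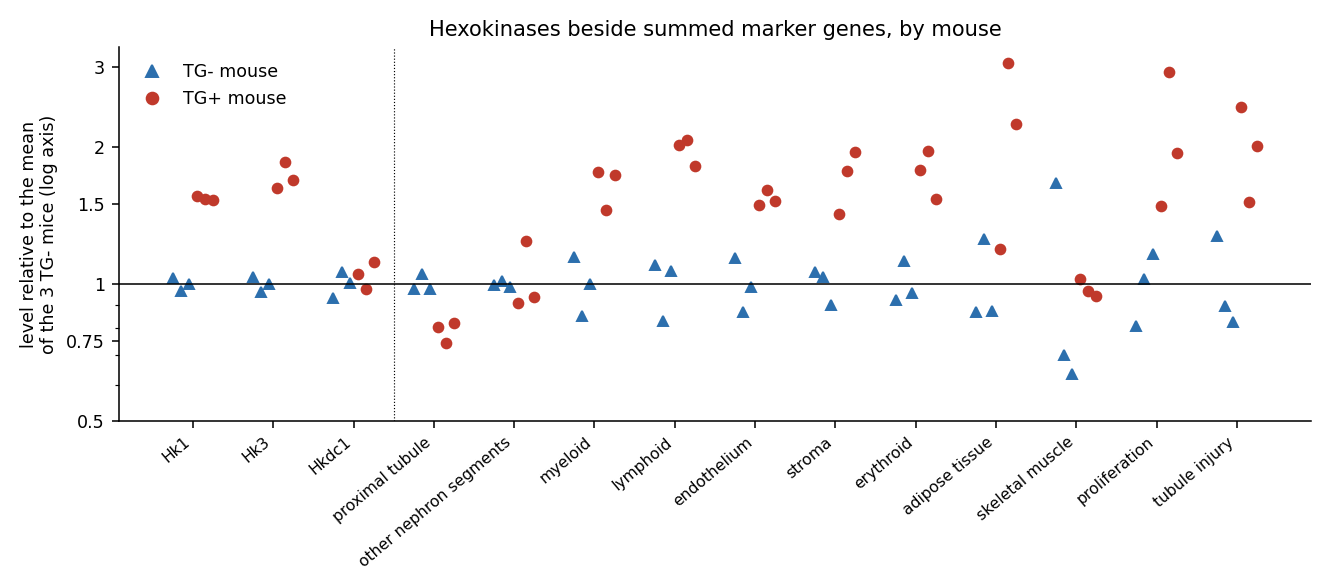
Level of Hk1, Hk3 and Hkdc1 (left of the dotted line) and summed level of 11 lists of marker genes in each mouse, relative to the mean of the 3 TG- mice, on a log axis (blue triangles TG-, red circles TG+). Myeloid markers stood at 1.46 to 1.76 in TG+ mice and Hk3 at 1.63 to 1.85, while proximal tubule markers stood at 0.742 to 0.820.

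Of 15 other enzymes of sugar phosphates described here, 13 kinases and the phosphomannomutases Pmm1 and Pmm2, 0 were called in either direction by edgeR or by DESeq2. By edgeR 3.98% of all genes tested were called, so 0 in so short a list says little. In edgeR 11 of the 15 had an unadjusted p below 0.05 (39.1% of all genes tested did). By the mean over both genotypes, the most abundant were the kinases of xylulose (Xylb, log2 fold change -0.54, adjusted p = 8.83e-04), fructose (Khk, 0.33, adjusted p = 0.00999) and triose (Tkfc, 0.61, adjusted p = 0.00237), each past the limit on adjusted p but not on fold. By adjusted p alone 3 of the 15 were higher and 3 lower, against 7.91% and 4.25% of all genes tested. The median log2 fold change of these genes was -0.19.

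The list of glucose 6-phosphate hydrolysis, the reverse of the hexokinase step, and of its transport held 2 tested phosphatases and 3 tested transporters. Of these 5, 0 were called by edgeR or by DESeq2. By edgeR 3.98% of all genes tested were called, so 0 in so short a list says little. In edgeR 3 had an unadjusted p below 0.05 (against 39.1% of all genes tested), and the median log2 fold change over all 5 of them was 0.33. Both phosphatases lay below 0. G6pc, the glucose 6-phosphatase of liver and kidney, stood at 584 ± 55.4 CPM in TG+ and 733 ± 91.8 CPM in TG- (SD, n = 3 each; log2 fold change -0.33, adjusted p = 0.0512). Its transporter Slc37a4 was at 371 ± 11.2 and 294 ± 9.14 CPM (0.33, adjusted p = 0.00370), and Slc37a1 at 4.17 ± 0.566 and 2.203 ± 0.121 CPM (0.92, adjusted p = 0.00325). The ubiquitous phosphatase G6pc3 had a log2 fold change of -0.06 (adjusted p = 0.442), and G6pc2 had at most 3 reads in every library.

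Of the 10 enzymes that take up glucose 6-phosphate or fructose 6-phosphate next, 4 were called higher and 0 lower (against 3.77% and 0.211% of all genes tested), 7 had an unadjusted p below 0.05 (against 39.1%), and the median log2 fold change was 0.74. Pfkp, a phosphofructokinase, rose by 3.33 (SE 0.13) on the log2 scale, Gpi1, which turns glucose 6-phosphate into fructose 6-phosphate, by 2.36 (SE 0.12), and Pfkl, the liver phosphofructokinase, by 2.12 (SE 0.07). Pgm1, which links glucose 6-phosphate to glycogen, rose by 1.05 (SE 0.10) and was not called without mouse 43-29 (0.97). G6pdx and H6pd, which lead into the pentose phosphate pathway, were at 0.16 (adjusted p = 0.296) and 0.00 (adjusted p = 0.966). In later glycolysis 7 of 15 genes were called higher (against 3.77% of all genes tested) and 0 lower, 12 had an unadjusted p below 0.05 (against 39.1%), and the median was 0.86. The called genes were led by Pkm (2.57), Aldoc (2.47), Eno1 (2.42) and Pklr (2.03). Of 8 genes of the glucose transporter families (Slc2a and Slc5a), 6 had an unadjusted p below 0.05 (against 39.1%), and Slc2a1 (GLUT1) was the 1 called higher (against 3.77% of all genes tested). It stood at 187 ± 54.5 CPM in TG+ and 38.7 ± 4.01 CPM in TG- (SD, n = 3 each; log2 fold change 2.27, adjusted p = 3.54e-04). The other transporters with the highest mean level over both genotypes were at -0.12 (Slc5a2, adjusted p = 0.122), 0.18 (Slc2a2, adjusted p = 0.1005) and 0.89 (Slc2a5, adjusted p = 0.00664), and the median was 0.35. Membership in these families does not say which sugar a transporter carries.

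Of 9 tested genes for the mitochondrial docking and the regulation of hexokinases, 0 were called in either direction by edgeR or by DESeq2. By edgeR 3.98% of all genes tested were called, so 0 in so short a list says little. In edgeR 4 had an unadjusted p below 0.05, a share near the 39.1% of all genes tested, and the median log2 fold change was -0.07. Vdac1, the most abundant docking channel, stood at 578 ± 8.59 CPM in TG+ and 557 ± 29.7 CPM in TG- (SD, n = 3 each; 0.05, adjusted p = 0.548), and Vdac2 was at -0.07 (adjusted p = 0.450). Txnip, an inhibitor of glucose uptake, had a log2 fold change of 0.61 (adjusted p = 0.0164), and the kinase Gsk3b of -0.06 (adjusted p = 0.580).

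**Figure D4:**
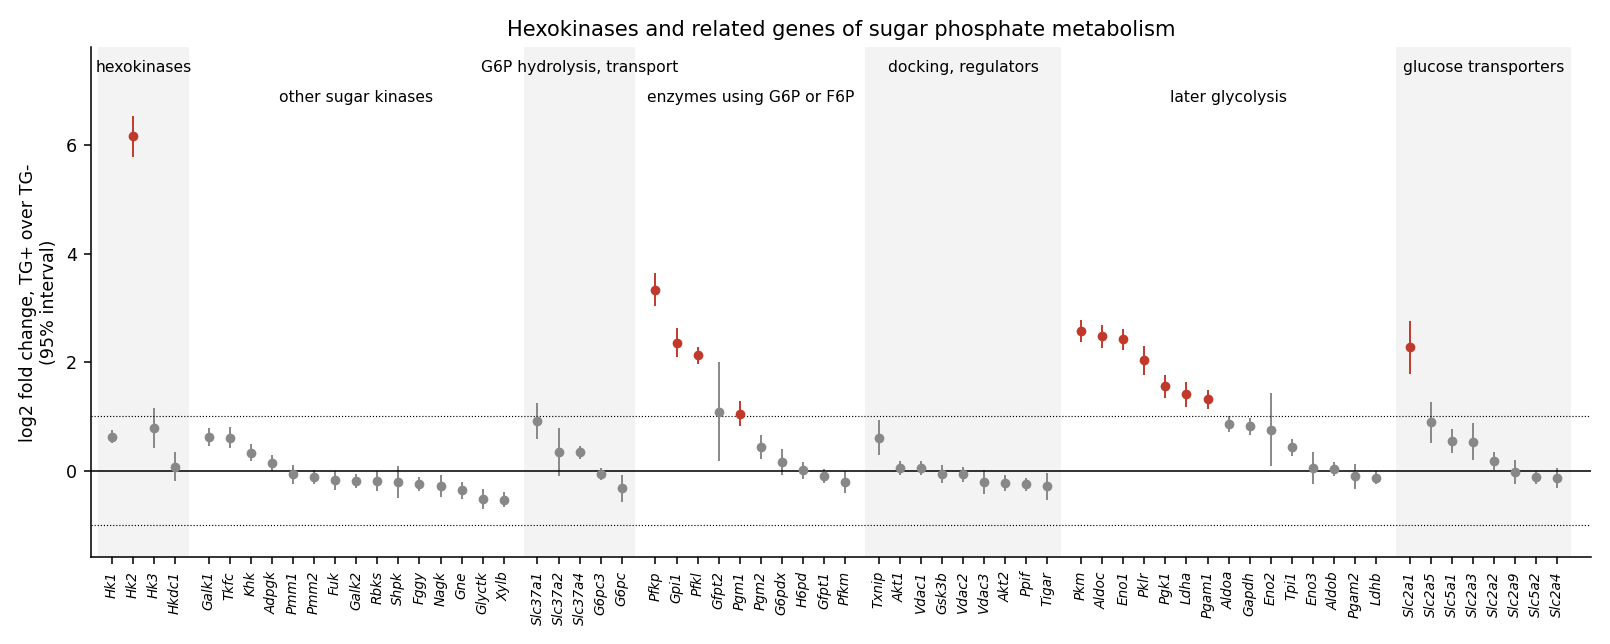
log2 fold change of TG+ over TG- with its 95% interval for the 4 hexokinases and the tested genes of 6 lists of related genes (G6P, glucose 6-phosphate; F6P, fructose 6-phosphate), called genes in red and dotted lines at a fold of 2 and 0.5. Hk2 at 6.16 was the highest of all genes shown, followed by Pfkp at 3.33, and no gene shown was called lower.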

How the data were processed

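The members and all gene lists were chosen with earlier results of these data known. The authors extracted RNA from a slice of kidney cortex, used the Illumina TruSeq RNA kit, sequenced 51-bp single-end reads and worked mainly with the Tuxedo tools. The submitters' processing notes name the build mm9. The counting program, the annotation and the use of strand are not given in the sources used here. The authors deposited whole-number read counts per gene and library, without normalization, for 12 libraries. The deposited RPKM values, scaled by the authors, were used here only for the gene length they imply. The deposited log2 RPKM columns were not used, nor were the columns of the authors' own comparison (fold changes, p-values and q-values).

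Counts of both kidneys were summed per mouse, filtered with filterByExpr, scaled by TMM and fitted in R 4.3.3 with edgeR 4.0.16 (quasi-likelihood F test, with limma 3.58.1), 3 TG+ against 3 TG- mice, with Benjamini-Hochberg adjustment over 19399 genes. The threshold follows the study: adjusted p below 0.01 with a fold above 2 or below 0.5. Replicates are separate mice. Counts limit the precision for Hk3 (34 to 73 reads per mouse). Intervals of fold changes come from the fit. The procedure was tested on simulated data. Symbols, merged exon lengths and neighbors came from GENCODE M21 (GRCm38), and because the counts rest on another build, no gene coordinates are given. RefSeq promoter windows (GRCm38.p6) were matched by symbol for all 4 members. Spread and likeness used log2 of CPM with a pseudocount of 0.05.

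From each related list at most 4 genes were named with values: called members with the largest change, else the most abundant. Outside this rule, G6pdx and H6pd were also named with values, and G6pc2 by its reads. For each member the nearest tested neighbors and the 3 genes most alike over 6 mice were named. Marker genes, and genes whose call changed under an alternative, were named after their values were seen. Alternatives were DESeq2 (1.42.0), scaling by library size alone, upper-quartile scaling, no filter, each kidney as its own library, each kidney alone, a block for pairs, leaving out each mouse, other thresholds, and other gene lengths. An item of the lists and an alternative that rests on it are not reported here. Python 3.11.15 (numpy 2.4.6, scipy 1.17.1, pandas 2.3.3, matplotlib 3.10.9) made the tables and plots.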

Additional observations from a re-analysis of the deposited data

Results flagged for a closer look

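Single libraries were compared with the other libraries of their genotype for each hexokinase, which made 8 groups of 6 libraries. In 2 of these groups 1 library stood apart by a distance test (its gap to the nearest library over the whole range of the group). Kidney 2 of the TG+ mouse 43-49 had the lowest Hk2 level of the TG+ libraries, at 40.6 CPM (gap over range 0.653). Kidney 1 of the same mouse had the lowest Hkdc1 level of the TG+ libraries, at 2.98 CPM, with 89 reads (gap over range 0.633). Chance flags about 1 in 20 groups, and the kidneys of a mouse are not independent. Without this mouse Hk2 remained called, and Hkdc1 did not pass the test.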

How the results depend on the processing

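The log2 fold changes kept their direction under all 14 alternatives for each member: 0.59 to 0.75 for Hk1, 5.94 to 6.45 for Hk2, 0.57 to 0.99 for Hk3 and 0.01 to 0.19 for Hkdc1. The calls of Hk1, Hk2 and Hkdc1 did not change. Hk3 passed the limit on adjusted p with libraries scaled by size alone (0.91, adjusted p = 0.00626), a scaling that moved the median of all genes from 0.01 to 0.13. It also passed with each kidney as its own library (0.78, adjusted p = 0.00340). That setting counts the kidneys of a mouse as separate replicates although they are not independent. Leaving out each mouse in turn gave 0.60 to 0.65 for Hk1, 5.94 to 6.45 for Hk2, 0.73 to 0.82 for Hk3 (adjusted p 0.0248 to 0.0421) and 0.01 to 0.11 for Hkdc1, with 1 member called each time, and 0 to 1 genes in the list of glucose 6-phosphate hydrolysis and transport. That 1 gene was Slc37a1, called without mouse 43-49 (1.02, adjusted p = 0.00268) and with library size alone (1.03). With library size alone, 1 gene of that list and 2 genes of the glucose transporter families (Slc2a1 and Slc2a5, the latter at 1.01) were called. With the TMM scaling of the report and no fold limit, 2 members passed.

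The share of Hk1 in TG+ mice was 46.6% with the length behind the deposited RPKM, 77.5% with the longest transcript, 73.9% with counts without length and 50.03% with exons summed over all transcripts (the last 3 chosen after seeing the data). In TG- mice the share of Hk1 was 82.0%, 94.0%, 94.9% and 83.9% with these lengths, and 91.9% and 90.9% in kidney 1 and kidney 2 alone. The share of Hk2 was 46.9%, 19.1%, 23.5% and 43.9% in TG+, and 1.78%, 0.501% and, with summed exons, 1.59% in TG-. Without each mouse, the share of Hk1 was 65.4 to 66.2% in TG+ and 91.4 to 91.7% in TG-, and that of Hk2 29.6 to 30.4% and 0.748 to 1.02%.

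The table's name gives 3 pairs of a TG+ and a TG- mouse, which the labels do not. Deviations from the group means correlated by 0.28, 0.31 and -0.06 within these pairs. Mice of different pairs were not compared in this way, so these values do not settle whether the mice are paired. The main fit used no block. A replicate block for the pairs gave 0.63 for Hk1, 6.16 for Hk2, 0.79 for Hk3 (adjusted p = 0.0199) and 0.07 for Hkdc1, with 779 genes higher and 46 lower overall. Over all genes, leaving out mouse 43-76 gave the fewest calls, 469 higher and 30 lower. Depth limits Hk3, whose kidneys differed by up to 0.94 (log2) within a mouse.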
